A study of Mus musculus with 6 samples.

Results

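The genes described here are 37 interferon response genes, read in the livers of mice that lack Gα12 and of wild-type (WT) mice. They are a list of gene names, and a probe was assigned to a gene when its accession belonged to that gene in a RefSeq table of assembly GRCm38.p6. By that rule 35 of the 37 had a probe, 45 probes in all. Of these, 33 genes had at least 1 probe well above background on 3 or more of the 6 arrays, 40 probes in all, out of 12297 such genes and 23132 such probes on the array. Mx1 and Mx2 had no probe with a matching accession. Oas3 with 1 probe and Oas1g with 2 probes were not well above background on any of the 6 arrays.

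Interferons are secreted by cells that detect viral nucleic acid or are activated as immune cells. Type I interferons act through receptors on most cells, and type III interferons mainly through receptors on epithelial cells. Their signal leads to a complex with STAT2 and IRF9 that binds the interferon-stimulated response element. Interferon gamma acts mainly through the gamma-activated site. In liver the products of these genes restrain hepatitis viruses and intracellular parasites, and several are held at a low level without infection by tonic signalling.

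RNA came from the livers of male mice, 3 WT and 3 lacking Gα12 (a G protein α subunit, product of Gna12), on 1-colour Agilent arrays, 1 array for each mouse. Both groups were 8 weeks old and were killed after an overnight fast on a chow diet. Both had a background that was 95% C57BL/6, with 129/Sv as the other strain named in the labels. Neither the extent of the Gna12 deletion is given in the labels nor whether the groups were littermates. A level is the log2 of a probe's signal divided by the 75th percentile of its array, and differences are knockout minus WT (n = 3 per group). Such levels show a gene's order between livers, and they do not rank different genes. The number of arrays limits the precision.

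The arrays were not alike. The single Gna12 probe read -3.48, -4.55 and -0.89 in WT replicates 1 to 3 and -4.91, -4.62 and -3.47 in the knockout, and only WT replicate 3 was well above background, so it is a weak check of the genotype. WT replicates 1 and 2 stood apart from the other 4 livers over the whole array. Relative to the knockout mean, the median of all 12297 genes was 0.82, 0.71 and 0.03 in WT replicates 1 to 3. The 7 probes of Gapdh, a glycolytic gene whose probes should move together, spanned 9.58 and 7.79 log2 units in WT replicates 1 and 2, 4.01 in WT replicate 3 and 4.36 to 4.87 in the knockout. All genes together had a median difference of -0.49, and one between -0.21 and -0.55 with other scalings, so differences are to be read against that shift. The part of these technical values in the results was not tested. WT replicate 3 is therefore given apart throughout. All 7 hepatocyte markers were well above background in all 6 livers.

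The promoters of many interferon response genes carry the letters that the pathway acts through. They are shown for 8 genes, each chosen from those with a match. RefSeq windows of build GRCm38.p6, from 250 bases before to 50 bases after a gene's start, were used for 28 of the 37 genes. Iigp1 was not among the 28, and windows on 1 chromosome were left out for the 37 genes but not for all genes. The windows were searched for the core of the interferon-stimulated response element, GAAANNGAAA, on both strands. They were also searched for the gamma-activated site, TTCNNNGAA, which reads the same on both strands. The first motif was in a window of 17 of 28 genes, against 3.99% of all 27025 genes in the table, and 8 of the 28 held 2 or more matches. The second was in 9 of 28 genes, against 9.55% of all genes, and the 2 motifs overlapped in 1 window. Ifi44, Irf7, Irf9, Oasl1, Oasl2, Trim25 and Xaf1 held neither motif and are not shown. A match is a description of letters and not of a bound site. In the sequences, capitals mark matches to either motif.
Isg15: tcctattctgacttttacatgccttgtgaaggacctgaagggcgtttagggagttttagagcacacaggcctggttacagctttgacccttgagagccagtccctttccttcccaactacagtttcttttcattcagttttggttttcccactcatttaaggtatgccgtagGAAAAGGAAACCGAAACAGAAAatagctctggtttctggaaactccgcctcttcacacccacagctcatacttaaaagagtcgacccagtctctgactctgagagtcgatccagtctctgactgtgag
Ifit1: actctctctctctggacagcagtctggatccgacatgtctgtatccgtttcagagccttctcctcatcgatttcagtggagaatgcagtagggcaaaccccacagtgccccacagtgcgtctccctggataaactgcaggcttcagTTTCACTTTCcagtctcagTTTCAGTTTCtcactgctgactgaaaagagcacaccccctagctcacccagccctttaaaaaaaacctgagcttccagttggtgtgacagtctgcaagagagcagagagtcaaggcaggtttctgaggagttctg
Ifit3: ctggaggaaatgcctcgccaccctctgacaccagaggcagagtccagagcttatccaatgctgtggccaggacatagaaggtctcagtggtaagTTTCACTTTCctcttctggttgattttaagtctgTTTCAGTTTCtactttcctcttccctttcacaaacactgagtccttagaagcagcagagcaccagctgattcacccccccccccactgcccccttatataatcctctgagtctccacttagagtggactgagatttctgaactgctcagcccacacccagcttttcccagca
Oas1a: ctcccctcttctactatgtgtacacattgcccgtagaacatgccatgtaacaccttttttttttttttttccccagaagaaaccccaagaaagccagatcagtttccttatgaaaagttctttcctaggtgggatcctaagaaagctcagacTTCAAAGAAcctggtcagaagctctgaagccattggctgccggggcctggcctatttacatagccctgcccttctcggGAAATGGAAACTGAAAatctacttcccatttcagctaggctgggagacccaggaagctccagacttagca
Stat2: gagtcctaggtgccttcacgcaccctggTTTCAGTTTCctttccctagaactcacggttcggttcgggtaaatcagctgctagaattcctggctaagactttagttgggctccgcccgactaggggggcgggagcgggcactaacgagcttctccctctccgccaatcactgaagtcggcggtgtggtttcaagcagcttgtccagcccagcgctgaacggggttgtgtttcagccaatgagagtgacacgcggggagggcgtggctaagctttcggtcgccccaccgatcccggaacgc
Rsad2: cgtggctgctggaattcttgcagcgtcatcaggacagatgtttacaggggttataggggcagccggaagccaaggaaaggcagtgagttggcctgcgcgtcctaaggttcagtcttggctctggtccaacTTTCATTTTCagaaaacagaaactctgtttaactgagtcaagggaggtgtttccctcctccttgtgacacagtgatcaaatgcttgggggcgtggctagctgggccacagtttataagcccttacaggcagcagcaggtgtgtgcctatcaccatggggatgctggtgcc
Irgm1: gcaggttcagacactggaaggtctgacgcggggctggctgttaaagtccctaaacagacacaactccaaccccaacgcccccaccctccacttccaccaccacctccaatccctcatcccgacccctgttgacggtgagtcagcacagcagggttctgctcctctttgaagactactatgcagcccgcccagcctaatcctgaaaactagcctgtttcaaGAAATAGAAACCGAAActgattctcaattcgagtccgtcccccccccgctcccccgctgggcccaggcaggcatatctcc
Irf1: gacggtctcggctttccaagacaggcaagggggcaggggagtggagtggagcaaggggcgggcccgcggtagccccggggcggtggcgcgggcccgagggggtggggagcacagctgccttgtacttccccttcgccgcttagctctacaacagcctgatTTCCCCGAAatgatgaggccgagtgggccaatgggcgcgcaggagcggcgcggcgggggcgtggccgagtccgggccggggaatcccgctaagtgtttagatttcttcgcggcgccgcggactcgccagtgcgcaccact

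Isg15 (chr4:156200769-156201068, minus strand) held 3 overlapping matches to the response element, the first starting 78 bases before the gene's start. Ifit1 (chr19:34640639-34640938, plus strand) and Ifit3 (chr19:34583279-34583578, plus strand) held 2 separate matches each, at 104 and 85 bases before the start in Ifit1 and at 156 and 122 in Ifit3. In Oas1a (chr5:120907476-120907775, minus strand) and Irgm1 (chr11:48871371-48871670, minus strand) a pair of overlapping matches lay nearer the start, from 20 and from 30 bases before it. Oas1a also held a gamma-activated site motif 98 bases before the start. Stat2 (chr10:128270248-128270547, plus strand) and Rsad2 (chr12:26456403-26456702, minus strand) held 1 match each, at 222 and 120 bases before the start. Irf1 (chr11:53769764-53770063, plus strand, the first of 2 windows in the table) held no response element match and a gamma-activated site motif 90 bases before the start.

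Most interferon response genes read higher in WT replicates 1 and 2 than in every other liver, and the median of WT replicate 3 was close to that of the knockout livers. In 26 of the 33 genes both WT replicates 1 and 2 lay above WT replicate 3 and all 3 knockout livers, against 59.2% of all genes. In 15 of 33 they did so by over 1 log2 unit, against 17.7% of all genes, and with quantile normalization in 6, against 6.49%. Relative to the knockout mean, the median over the 33 genes was 1.51, 1.24 and 0.02 in WT replicates 1 to 3 and -0.04, -0.07 and 0.16 in knockout replicates 1 to 3. WT replicate 3 lay within the range of the knockout livers for 14 genes, above it for 10 and below it for 9, and it lay within that range for 40.6% of all genes. Over the 33 genes the median SD came to 0.88 for WT and 0.20 for knockout livers, against 0.65 and 0.19 over all genes.

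**Figure D1:**
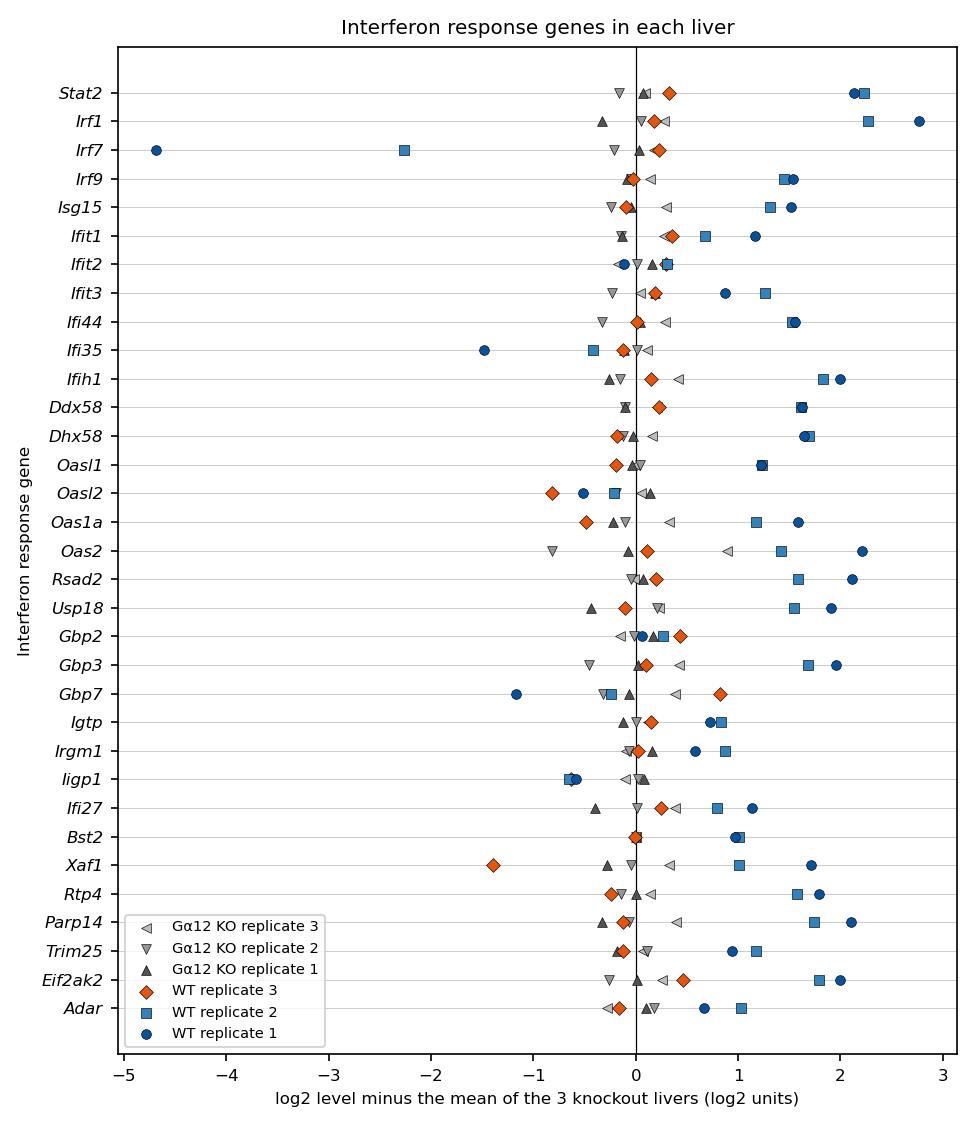
Log2 level of each of 33 interferon response genes (rows) minus the mean of the 3 knockout livers, in log2 units, with 1 point for each liver and no error bars. For 26 genes WT replicates 1 and 2 (blue) lie to the right of all other livers, whereas WT replicate 3 (orange) lies within the knockout range (grey) for 14.

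Compared as 3 WT against 3 knockout livers, limma called 0 of the 33 genes at an adjusted p below 0.05, as it called 0 of all 12297 genes (0%). At an unadjusted p below 0.05, 6 of 33 were lower in the knockout (18.2%) and 0 higher, against 16.6% and 3.98% of all genes, so that the share of lower genes was near the background. They were Stat2, Irf1, Ifih1, Ddx58, Rsad2 and Eif2ak2. That count of 6 was 1 without WT replicate 1, 0 without WT replicate 2, 26 without WT replicate 3, and 2, 0 and 5 without knockout replicates 1, 2 and 3. In the same order, the shares of all genes that were lower were 5.42%, 4.72%, 54.8%, 6.42%, 4.50% and 8.39%. Limma with trend and robust estimation called 0 as well, with 7 lower at an unadjusted p below 0.05 (21.2%, against 17.2% of all genes). The groups did not overlap for 6 genes that were lower in the knockout (21.1% of all genes) and for 3 that were higher (4.42% of all genes). The median difference of the 33 genes was -0.76, which is -0.27 from the median of all genes, and 28 of 33 differences were below 0 under each scaling tried (84.8%, against 72.3% of all genes with the scaling used here).

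The transcription factors that carry the signal included both signs of difference. Stat2, the STAT that is particular to type I and type III signalling, read 4.92 and 5.01 in WT replicates 1 and 2, 3.11 in WT replicate 3 and 2.86, 2.62 and 2.87 in the knockout livers, a difference of -1.56 (SE 0.53) with a limma adjusted p of 0.235. Every WT liver was above every knockout liver, but WT replicate 3 exceeded the highest knockout liver by little. Irf1, a transcription factor induced by interferon gamma, read 5.47 and 4.98 in WT replicates 1 and 2, 2.89 in WT replicate 3 and 2.38, 2.76 and 2.99 in the knockout livers, a difference of -1.74 (SE 0.65) and an adjusted p of 0.235 in limma. WT replicate 3 lay among the knockout livers. Irf9, the DNA-binding partner of STAT2, read 4.42 and 4.34 in WT replicates 1 and 2, 2.86 in WT replicate 3 and 2.80, 2.83 and 3.02 in the knockout livers, a difference of -0.99 (SE 0.47), and again WT replicate 3 lay among the knockout livers.

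Irf7, the regulator that amplifies interferon alpha production, ran the other way. It read -4.95 and -2.53 in WT replicates 1 and 2, -0.04 in WT replicate 3 and -0.23, -0.48 and -0.08 in the knockout livers, and WT replicate 1 was not well above background. The difference of 2.24 (SE 1.07) (limma adjusted p = 0.244) therefore rested on WT replicates 1 and 2, and WT replicate 3 was the highest of the 6 livers. Ifi35, a protein that binds other interferon-induced factors, was likewise lowest in WT replicates 1 and 2. Its levels were 1.53 and 2.59 in WT replicates 1 and 2, 2.88 in WT replicate 3 and 2.89, 3.02 and 3.11 in the knockout livers, a difference of 0.67 (SE 0.42), and the groups did not overlap. These were the 2 of 33 genes for which WT replicates 1 and 2 lay below each of the other 4 livers, against 16.4% of all genes.

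The ISG15 system, which attaches a ubiquitin-like protein to others, showed the common order, for Isg15 on the brighter of its 2 probes. Isg15, the modifier itself and the gene with 3 response element matches above, read 5.81 and 5.61 in WT replicates 1 and 2, 4.20 in WT replicate 3 and 4.25, 4.05 and 4.59 in the knockout livers, a difference of -0.91 (SE 0.48). Usp18, the protease that removes ISG15 and restrains the type I receptor, read 3.71 and 3.35 in WT replicates 1 and 2, 1.69 in WT replicate 3 and 1.37, 2.01 and 2.03 in the knockout livers, a difference of -1.11 (SE 0.55). In both genes WT replicate 3 fell within the range of the knockout livers, and neither was called (limma adjusted p = 0.259 and 0.25).

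The cytosolic sensors of viral RNA followed the same pattern, Ddx58 on the brighter of its 2 probes. Ifih1, which encodes MDA5, read 4.55 and 4.38 in WT replicates 1 and 2, 2.70 in WT replicate 3 and 2.29, 2.39 and 2.96 in the knockout livers, a difference of -1.33 (SE 0.54) (limma adjusted p = 0.235). Ddx58, which encodes RIG-I, read 4.21 and 4.20 in WT replicates 1 and 2, 2.81 in WT replicate 3 and 2.48, 2.48 and 2.80 in the knockout livers, a difference of -1.16 (SE 0.45) (adjusted p = 0.235 in limma), and its groups did not overlap by a narrow margin at WT replicate 3. Dhx58, whose product LGP2 modulates the other sensors, read 1.96 and 1.997 in WT replicates 1 and 2, 0.12 in WT replicate 3 and 0.28, 0.18 and 0.46 in the knockout livers, a difference of -1.05 (SE 0.53), with WT replicate 3 the lowest of the 6. Eif2ak2, which encodes PKR, the kinase that stops translation on double-stranded RNA, had the lowest unadjusted p of the 33 genes, each read from its brightest kept probe. It read 1.04 and 0.83 in WT replicates 1 and 2, -0.49 in WT replicate 3 and -0.95, -1.22 and -0.71 in the knockout livers, a difference of -1.42 (SE 0.46) (limma adjusted p = 0.235), and all WT livers exceeded all knockout livers. Adar, which edits double-stranded RNA, read 2.46 and 2.81 in WT replicates 1 and 2, 1.62 in WT replicate 3 and 1.89, 1.96 and 1.51 in the knockout livers, a difference of -0.51 (SE 0.40).

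Among effectors that act on viral RNA, all 3 IFIT genes had differences below 0, as had 72.3% of all genes. Ifit2 differed by only -0.16 (SE 0.31), and its groups overlapped. Ifit1, whose product binds RNA lacking the host cap, read 0.38 and -0.10 in WT replicates 1 and 2, -0.43 in WT replicate 3 and -0.91, -0.93 and -0.51 in the knockout livers, a difference of -0.73 (SE 0.35) without overlap of the groups. Ifit3, its partner, read 2.17 and 2.57 in WT replicates 1 and 2, 1.49 in WT replicate 3 and 1.49, 1.07 and 1.34 in the knockout livers, a difference of -0.78 (SE 0.38), with WT replicate 3 level with the highest knockout liver. Rsad2, which encodes the antiviral enzyme viperin, read 2.09 and 1.57 in WT replicates 1 and 2, 0.17 in WT replicate 3 and 0.05, -0.07 and -0.04 in the knockout livers, a difference of -1.30 (SE 0.50) (limma adjusted p = 0.235). Its 3 knockout livers lay close together, and WT replicate 3 stood just above them.

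The OAS genes, which make the second messenger that activates RNase L or are relatives of those enzymes, did not all differ in 1 direction. Oas1a read 3.06 and 2.65 in WT replicates 1 and 2, 0.99 in WT replicate 3 and 1.25, 1.37 and 1.80 in the knockout livers, a difference of -0.76 (SE 0.55), with WT replicate 3 the lowest liver. Oasl1, which restrains translation of Irf7, read 2.28 and 2.29 in WT replicates 1 and 2, 0.86 in WT replicate 3 and 1.01, 1.09 and 1.05 in the knockout livers, a difference of -0.76 (SE 0.45), again with WT replicate 3 lowest. Oasl2 had the opposite order, at -0.80 and -0.49 in WT replicates 1 and 2, -1.10 in WT replicate 3 and -0.14, -0.48 and -0.23 in the knockout livers, a difference of 0.52 (SE 0.32), so that every knockout liver was above every WT liver, by the smallest margin at WT replicate 2. None of the 3 was called (limma adjusted p = 0.36, 0.29 and 0.306). The OAS, IFIT and GTPase genes include near-identical copies, and whether their probes also bind a copy was not tested.

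The interferon-inducible GTPases, which act on the vacuoles of parasites and bacteria and respond mainly to interferon gamma, had differences of both signs, from -1.25 for Gbp3 to 0.62 for Iigp1. Gbp2 read -0.88 and -0.68 in WT replicates 1 and 2, -0.51 in WT replicate 3 and -0.78, -0.97 and -1.10 in the knockout livers, a difference of -0.26 (SE 0.30), and the livers overlapped. Igtp read 5.33 and 5.43 in WT replicates 1 and 2, 4.74 in WT replicate 3 and 4.48, 4.60 and 4.72 in the knockout livers, a difference of -0.57 (SE 0.33) without overlap. Irgm1, which controls the other GTPases of this family, read 4.14 and 4.43 in WT replicates 1 and 2, 3.57 in WT replicate 3 and 3.71, 3.49 and 3.46 in the knockout livers, a difference of -0.49 (SE 0.34) with WT replicate 3 among the knockout livers. In Iigp1 the 3 WT livers were alike on the brighter of its 2 probes. It read 4.33 and 4.26 in WT replicates 1 and 2, 4.28 in WT replicate 3 and 4.997, 4.93 and 4.81 in the knockout livers, a difference of 0.62 (SE 0.29) (limma adjusted p = 0.241). All 3 knockout livers were above all 3 WT livers, and WT replicate 3 did not differ in direction from WT replicates 1 and 2.

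Of the membrane-associated products, Bst2 (tetherin, which holds budding virions at the cell surface) read 7.34 and 7.37 in WT replicates 1 and 2, 6.36 in WT replicate 3 and 6.37, 6.36 and 6.36 in the knockout livers, a difference of -0.66 (SE 0.37). WT replicate 3 and the knockout livers were almost identical. Ifi27, which encodes a small mitochondrial and nuclear envelope protein, read 7.46 and 7.13 in WT replicates 1 and 2, 6.58 in WT replicate 3 and 5.93, 6.34 and 6.72 in the knockout livers, a difference of -0.73 (SE 0.38), with WT replicate 3 within the knockout range. The remaining 9 genes were Ifit2, Ifi44, Oas2, Gbp3, Gbp7, Xaf1, Rtp4, Parp14 and Trim25, whose differences ran from -1.25 for Gbp3 to 0.20 for Gbp7. For 7 of them WT replicates 1 and 2 were the 2 highest livers, Ifit2 and Gbp7 being the exceptions. Ifit2 was well above background in 1 of 3 knockout livers and Oas2 in 2 of 3. Xaf1, a pro-apoptotic gene singled out after its values were seen, had WT replicate 3 farthest below the knockout livers. It read 3.69 and 2.99 in WT replicates 1 and 2, 0.58 in WT replicate 3 and 1.69, 1.93 and 2.30 in the knockout livers on its brighter probe.

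The counts changed with the WT livers that entered the comparison. Without WT replicate 3, limma called 26 of the 33 genes as lower in the knockout (78.8%) and 2 as higher, at an adjusted p below 0.05, against 50.6% and 11.5% of all genes. The lower ones included Stat2 (-2.18), Irf1 (-2.52) and Isg15 (-1.41), and the higher ones were Irf7 (3.48) and Iigp1 (0.62). With WT replicates 1 and 2 left out instead, the 3 knockout livers were compared with WT replicate 3 alone, which is assumed to vary as the knockout livers do. Limma then called 0 genes, the median difference was -0.02 (-0.03 over all genes), and 3 of 33 had an unadjusted p below 0.05, against 6.78% of all genes. These were Xaf1 (1.40, SE 0.31), Oasl2 (0.82, SE 0.23) and Iigp1 (0.63, SE 0.20), all higher in the knockout. The second Xaf1 probe did not share this, since it read 0.29 in WT replicate 3 against -0.74 to -0.36 in the knockout. The difference of Stat2 was then -0.33, that of Irf1 -0.18, that of Isg15 0.10 and that of Eif2ak2 -0.47. Of the 33 genes, 14 had a difference of the opposite sign to that with all 6 livers.

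**Figure D2:**
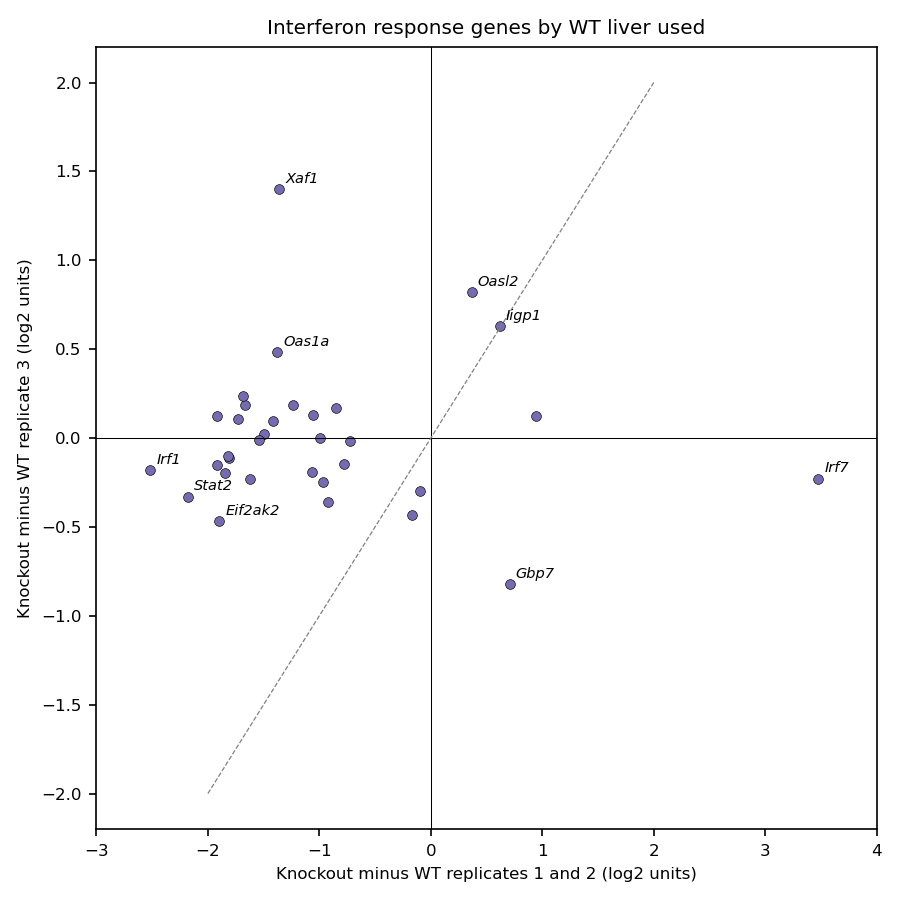
Knockout minus WT difference of the 33 genes (points) in log2 units, with WT replicates 1 and 2 as the WT group (horizontal axis) and with WT replicate 3 as the WT group (vertical axis). Both axes use the same knockout livers, and the dashed line marks equal values. Irf1 lies farthest left at -2.52 and Irf7 farthest right at 3.48, Xaf1 is highest at 1.40, and Iigp1 lies near the dashed line.

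In 7 genes 2 probes passed the filter, and the gap between the brighter and the dimmer probe does not depend on the array's scale. The gap was wider in WT replicates 1 and 2 than in each of the other 4 livers for 5 of the 7, Ddx58 and Xaf1 being the exceptions. The dimmer Ddx58 probe was well above background in only 1 of 3 knockout livers, so its gap in the other two is only a bound. For Irgm1 the gap was 6.54 and 4.70 log2 units in WT replicates 1 and 2, 1.89 in WT replicate 3 and 2.16, 2.26 and 2.06 in the knockout, so that its brighter probe differed by -0.49 (SE 0.34) and its dimmer probe by 1.72 (SE 0.90). For Oas1a the gap was 4.89, 4.07 and 2.11 in WT replicates 1 to 3 and 2.43 to 2.75 in the knockout, and the dimmer probe differed by 0.31 (SE 0.34). For Adar the brighter probe differed by -0.51 and the dimmer by 0.32. The 2 probes thus had opposite signs in 3 of the 7 genes. Both probes had differences below 0 for Isg15, Ddx58 and Xaf1, with -0.35 and -0.99 for the dimmer ones of Isg15 and Xaf1. The dimmer Isg15 probe lacked the common order, at 0.48 in WT replicate 1 against 0.53 in knockout replicate 3. So did the dimmer Ddx58 probe, at -2.66 in WT replicate 1 against -2.09 in WT replicate 3. On the dimmer Xaf1 probe (SE 0.30) every WT liver was above every knockout liver. Its limma unadjusted p was 0.012, lower than that of Eif2ak2, with an adjusted p of 0.235. In Iigp1 both probes were higher in the knockout, the dimmer by 1.07 (SE 0.43), and the dimmer read 1.96, 1.60 and 3.07 in WT replicates 1 to 3 against 3.21 to 3.39 in the knockout. Its WT replicate 3 was nearer the knockout livers on that probe than on the brighter one.

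**Figure D3:**
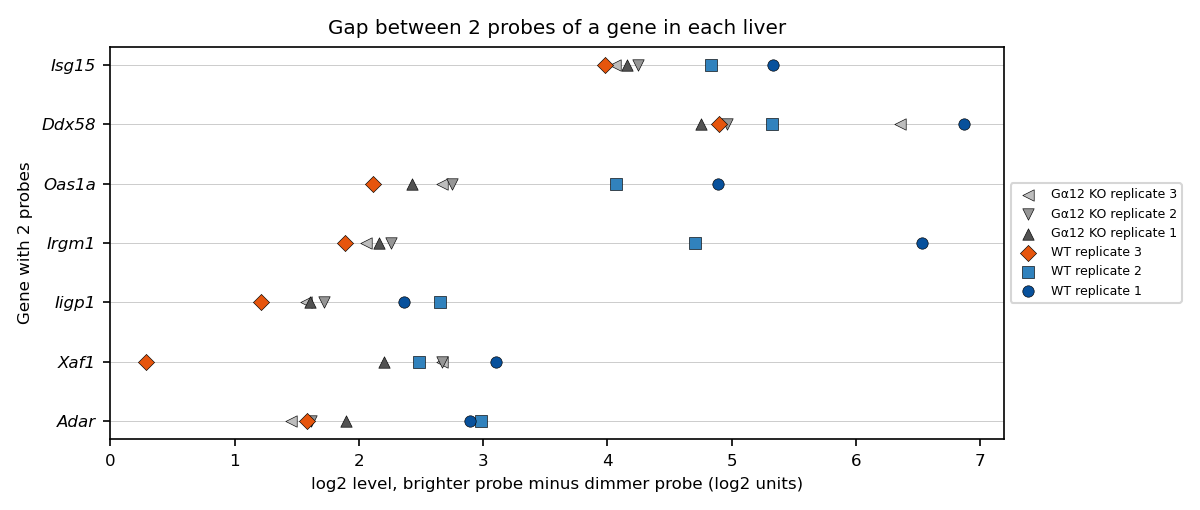
Log2 level of the brighter probe minus that of the dimmer probe, in log2 units, for 7 interferon response genes with 2 probes above the filter and each of the 6 livers (points). For Irgm1, Oas1a and Adar the gap is wider in WT replicates 1 and 2 than in the other 4 livers, which lie close together.

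The order of livers was set beside the promoter motifs. The genes with a measured level and a searched promoter window, which leave out Iigp1, were split by the response element core. WT replicates 1 and 2 lay above the other 4 livers in 13 of 15 with the core and 7 of 11 without. Over all genes the share was 59.2%. The exceptions were Gbp2 and Gbp7 with the core and Irf7, Ifi35, Oasl2 and Ifit2 without it. The median differences were -0.78 with the core and -0.51 without, against -0.49 for all genes, and the split was not tested. Isg15, Rsad2 and Ifit1, which carry the core, and Irf1, which lacks it in the windows searched, shared the order of livers on their brightest kept probes.

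The rest of the pathway was read from 92 further genes grouped by role, of which 72 were measured. Limma called 0 of the 72 at an adjusted p below 0.05, and an unadjusted p below 0.05 was found for 9 with a lower and 4 with a higher level in the knockout, against 16.6% and 3.98% of all genes. The lower share of 12.5% was below that of all genes. Their median difference was -0.46, close to that of all genes, and WT replicates 1 and 2 lay above the other livers in 39 of 72, against 59.2% of all genes. Of the ligand genes, only Ifnl3 of 9 passed the filter on dim probes, and it overlapped between groups at -1.34 and -1.84 in WT replicates 1 and 2, -1.09 in WT replicate 3 and -1.61, -1.08 and -1.35 in the knockout livers. The differences of all 5 measured receptor genes were below 0, as were 72.3% of all genes, and 0 had an unadjusted p below 0.05. Ifnar1, a chain of the type I receptor, read 2.89 and 2.65 in WT replicates 1 and 2, 1.87 in WT replicate 3 and 1.70, 1.70 and 1.54 in the knockout livers, a difference of -0.83 (SE 0.36), and its groups did not overlap.

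Among the kinases and other IRFs, Jak1, a kinase of both receptor types, differed by -1.06 (SE 0.45) with an unadjusted p below 0.05. Irf2, an antagonist of Irf1 on shared sites, had such a p with a higher level in the knockout, at 0.33 and 1.15 in WT replicates 1 and 2, 1.46 in WT replicate 3 and 2.56, 2.09 and 1.82 in the knockout livers, a difference of 1.18 (SE 0.41) without overlap. Of 12 sensors and adaptors, 2 lower and 1 higher had such a p, and the lower share of 16.7% was level with the 16.6% of all genes. Sting1 differed by -1.16 (SE 0.45) and Ticam1, the adaptor of TLR3, by 1.504 (SE 0.45), whereas Cgas was not well above background in any knockout liver. Of 8 negative regulators, Socs3 was the one with an unadjusted p below 0.05. It read 2.83 and 1.35 in WT replicates 1 and 2, 0.74 in WT replicate 3 and 0.01, -0.01 and 0.60 in the knockout livers, a difference of -1.44 (SE 0.55). Limma adjusted p-values were 0.235 to 0.237 for these 6 genes.

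A further 38 interferon-induced genes that are not among the 33 held 5 genes with a lower and 2 with a higher level at an unadjusted p below 0.05. The shares were 13.2% and 5.26%, against 16.6% and 3.98% of all genes, so the lower share did not exceed the background. Gbp4 was lower by value at 0.48 and -0.15 in WT replicates 1 and 2, -1.69 in WT replicate 3 and -2.20, -2.11 and -1.85 in the knockout livers, a difference of -1.60 (SE 0.55), and Tgtp2, another parasite-directed GTPase with a near-identical copy, differed by -1.29 (SE 0.49). Psmb8, an immunoproteasome subunit gene, was higher in every knockout liver at 3.53 and 3.64 in WT replicates 1 and 2, 3.36 in WT replicate 3 and 4.17, 4.31 and 4.18 in the knockout livers, a difference of 0.71 (SE 0.29). Its 3 WT livers were alike, with WT replicate 3 the lowest. Tap1, the peptide transporter gene, was not well above background in 1 of 3 WT livers, so that its fitted difference of 2.39 (SE 0.91) is not exact. WT replicate 3 lay inside the knockout range and the other WT livers far below it. In median over these 38 genes WT replicates 1, 2 and 3 lay 0.76, 0.57 and -0.02 from the knockout mean, which is close to all genes.

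**Figure D4:**
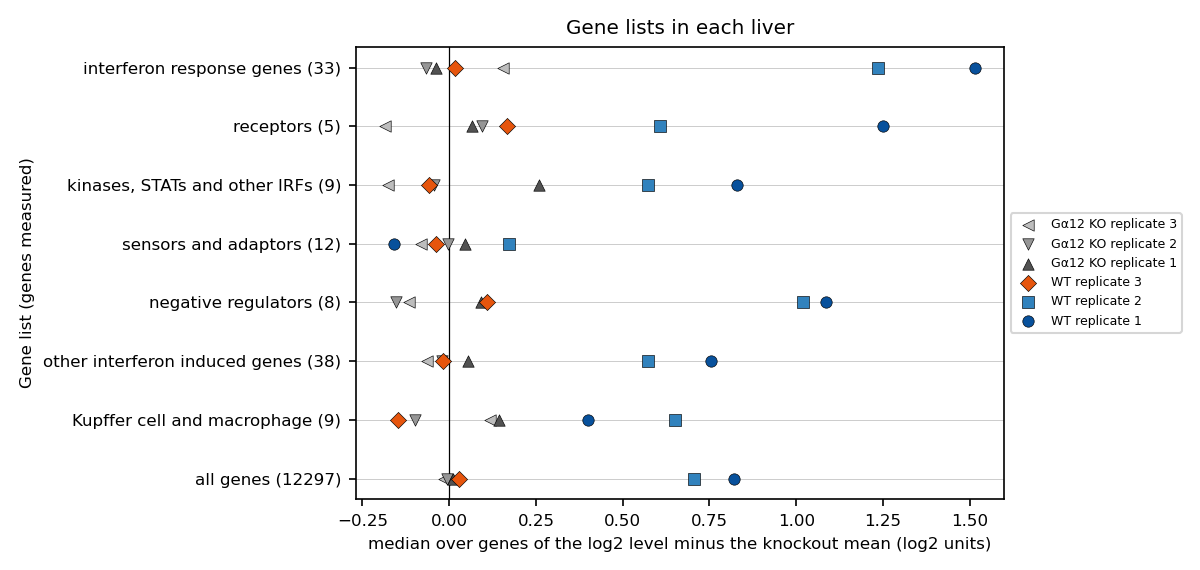
Median over the genes of a list of the log2 level minus the mean of the 3 knockout livers, in log2 units, for each liver (points), with the number of genes measured in brackets. The 33 interferon response genes have medians of 1.51 and 1.24 in WT replicates 1 and 2 against 0.82 and 0.71 for all genes, and 0.02 against 0.03 in WT replicate 3.

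Immune cells are a source of interferon and carry many of these transcripts, and in whole liver fewer cells of a type and less RNA per cell cannot be told apart. Of 11 Kupffer cell and macrophage markers 9 were measured, and Cd163 was not well above background in any liver. Their summed linear level was 184 and 178 in WT replicates 1 and 2, 89.4 in WT replicate 3 and 92.9 to 111 in the knockout, in units of each array's 75th percentile. Such a sum is weighted by its brightest probes and is not corrected for the shift of all genes in WT replicates 1 and 2. The median over the 9 markers was 0.40, 0.65 and -0.15 in WT replicates 1 to 3 relative to the knockout mean, below that of all genes in each. Their median difference was -0.17, against -0.49 for all genes, and WT replicates 1 and 2 lay above the other livers for 5 of 9 (55.6%, against 59.2%). Adgre1, which encodes F4/80, read 2.11 and 2.03 in WT replicates 1 and 2, 0.73 in WT replicate 3 and 0.93, 0.45 and 0.91 in the knockout livers, whereas C1qa, another macrophage gene, was lowest in WT replicates 1 and 2 at 0.16 and 1.58. The summed level of 3 measured plasmacytoid dendritic cell markers was 197, 101 and 72.8 in WT replicates 1 to 3 and 39.2 to 84.2 in the knockout. These markers did not move together, with differences from -1.09 to 0.82. Their median relative to the knockout mean was 0.17, -0.28 and 0.45 in WT replicates 1 to 3. For 6 NK and T cell markers the summed level ran from 56.6 to 92 in WT and from 66.1 to 110 in the knockout, and Ncr1 was not well above background anywhere. The 4 stellate cell markers summed to 82.8 to 142 in WT, lowest in WT replicate 3, and to 62.9 to 76.1 in the knockout, without overlap. Their median difference was -0.79, against -0.49 for all genes. Dcn and Lrat were lower in every knockout liver than in any WT liver, 2 of 4 against 21.1% of all genes. Of the 4 markers 1 went the other way, with a difference of 1.28. Sums of 5 sinusoidal endothelial, 3 neutrophil, 2 B cell and 1 dendritic cell markers overlapped between the groups, and Xcr1 and Mpo were not well above background in any liver. Of 7 hepatocyte markers 6 had differences above 0, with a median difference of 0.12, against -0.49 for all genes. Their median relative to the knockout mean was 0.33, -0.10 and -0.58 in WT replicates 1 to 3. WT replicate 3 lay below the knockout range for 5 of the 7, against 3295 of all 12297 genes. The part of these cells in the interferon gene levels was not tested.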

How the data were processed

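Liver RNA of 6 mice was measured on 1 slide, the WT arrays in row 1 and the knockout arrays in row 2, and this row and the genotype cannot be told apart. Agilent Feature Extraction 10.7.3.1 read the spots, per the file headers, and the deposited scanner files hold spot intensity on a linear scale, with background subtracted. The deposited series matrix holds log2 values, which equalled the log2 processed intensity plus a constant per array for over 99% of probes. How the authors chose these constants is not given in the sources used here.

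From these, log2 processed intensity minus the 75th percentile of non-control spots was taken. Control and outlier spots were left out, and probes well above background on at least 3 arrays were kept. Of 55324 probes with a value on all arrays, 26603 matched a gene. A gene was read from its kept probe with the highest mean. Knockout minus WT was fitted over all kept probes with limma 3.58.1 in R 4.3.3 (lmFit, eBayes, two-sided, Benjamini-Hochberg). The normexp alternative used the median spot signal. The fit was run on simulated data with the same spread in both groups. The livers differed from that, with a median SD over all genes of 0.65 for WT and 0.19 for knockout, so the simulation does not cover this case. Same-numbered arrays did not deviate together (r = -0.13, 0.01 and -0.04), and the main fit did not pair arrays by replicate number. With the wide spread of the WT livers, these values cannot exclude a pairing. Genes were named by role, by an unadjusted p below 0.05 or by groups that did not overlap. The members and lists were chosen with earlier results of these data known. Alternatives changed scaling, background, filter, probe summary, variance model and the livers used. Probe sequences were not used here, and 1 pathway gene is counted but not reported here.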

Additional observations from a re-analysis of the deposited data

How the results depend on the processing

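No gene among the 33 was called by limma under any scaling, background, filter, probe or variance alternative, and only leaving out WT replicate 3 produced calls. Over all probes limma called 1 with normexp, 2 with the filter on all 6 arrays and 7 with the mean over a gene's probes. Genes of the 33 that were lower at an unadjusted p below 0.05 numbered 10 with normexp (30.3%, against 21.1% of all genes). At that threshold 1 was higher with normexp, with the median as the scale, with quantile normalization, without a filter, with the mean over probes and with the replicate block. With the replicate block 6 were lower (18.2%, against 12.5% of all genes), and 0 were called. Leaving out 1 liver at a time gave 0 to 13123 probes called, 0 to 28 of the 33 genes, 0 to 45 other pathway genes, and, at an unadjusted p below 0.05, 0 to 26 genes lower and 0 to 3 genes higher. The upper ends of these 5 ranges came without WT replicate 3. That fit called 45.8% of the 72 measured pathway genes lower and 16.7% higher, against 50.6% and 11.5% of all genes. At an unadjusted p below 0.05 it had 6742 of all 12297 genes lower (54.8%) and 1642 higher. With 1 liver left out at a time, the median of the 33 genes relative to all genes ran from -0.59 to -0.18. Gbp7 ran from -0.29 to 0.71 and Xaf1 from -1.36 to 0.19, changing sign without WT replicate 1. Without WT replicates 1 and 2 together, an unadjusted p below 0.05 was left for 0 lower and 3 higher genes, the median relative to all genes was 0.01, and the sign turned for these log2 differences: Irf7 -0.23, Irf9 0.023, Isg15 0.097, Dhx58 0.19, Oasl1 0.19, Oas1a 0.48, Usp18 0.11, Gbp7 -0.82, Bst2 0.0027, Xaf1 1.40, Rtp4 0.24, Parp14 0.12, Trim25 0.13, Adar 0.17. With the mean over probes Irgm1 turned to 0.62. The count of genes with WT replicates 1 and 2 over 1 log2 unit above the other livers, whose alternatives were chosen after seeing the data, was 6 with quantile normalization and 13 to 16 otherwise. The cause of these changes was not tested. Oas1g and Oas3 have only a background signal, so the arrays set no level for them.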
